A study of Homo sapiens with 4 samples.

Results

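Metallothioneins and zinc transporters were followed in A549 cells, an established human lung carcinoma line, before and after induction of A-FOS. The set was taken by gene symbol from the protein-coding genes of 4 polyA RNA-seq count files, with earlier results of these data known. It holds 34 of the 58051 listed genes: 9 metallothioneins (MT1 genes and MT2A), 10 SLC30A zinc exporters, 14 SLC39A zinc importers and the transcription factor MTF1. All libraries came from cells in which an A-FOS gene had been inserted at random with piggyBac transposase. A-FOS is an engineered dominant-negative FOS protein that binds JUN partners and blocks their contact with DNA, and doxycycline switches it on. The minus Dox group (n = 2 libraries) had no treatment and the plus Dox group (n = 2) received 1 µg/mL doxycycline. No duration of treatment and no separate cultures are named in the labels, so p-values measure the spread between these libraries, which may be technical. The plus Dox libraries came from cells given the drug that also induces A-FOS, so effects of drug and protein cannot be told apart. The share of cells that made the protein is not known from these data. The series as a whole asks how FOXA1 and AP-1, the family of FOS and JUN dimers, bind DNA together.

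Zinc is a cofactor of many enzymes and transcription factors, and cells keep the free ion scarce. Metallothioneins are small cysteine-rich proteins that bind zinc, copper and cadmium in the cytosol. Most SLC30A proteins (ZnT) move zinc out of the cytosol, across the plasma membrane or into organelles, and SLC39A proteins (ZIP) move it into the cytosol. Exporter and importer are used here as family labels, and no direction of transport was measured. MTF1 senses free zinc and binds metal response elements in the promoters of the metallothionein genes and of SLC30A1. Metallothionein genes are also known to respond to glucocorticoids and to oxidant stress.

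The promoters of MT2A and MT1X are shown because these metallothioneins gave the most counts. The sequences are the 250 bases upstream of the RefSeq start (GRCh38.p14), 5′ to 3′ on the plus strand, with matches to the metal response element core in capitals. The core was searched as TGCACNC or TGCGCNC on both strands.

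MT2A, chr16:56608334-56608583: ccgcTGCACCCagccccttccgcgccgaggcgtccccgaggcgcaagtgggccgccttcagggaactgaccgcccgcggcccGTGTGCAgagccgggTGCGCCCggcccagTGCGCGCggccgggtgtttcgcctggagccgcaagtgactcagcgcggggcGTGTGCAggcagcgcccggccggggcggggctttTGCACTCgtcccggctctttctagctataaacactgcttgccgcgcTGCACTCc

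MT1X, chr16:56682220-56682469: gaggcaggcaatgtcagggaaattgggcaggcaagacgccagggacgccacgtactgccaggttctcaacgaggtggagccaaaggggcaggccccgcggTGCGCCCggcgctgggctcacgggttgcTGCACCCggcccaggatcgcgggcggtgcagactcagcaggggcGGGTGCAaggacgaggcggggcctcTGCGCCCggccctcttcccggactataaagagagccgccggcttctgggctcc

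The MT2A window held 7 matches and the MT1X window 4. Of 35116 promoters of the same length, 24.8% held at least 1 match and 1.58% held 3 or more. The AP-1 site TGANTCA, which reads the same on both strands, was found once in the MT2A window, with its first base 104 bases before the start (−104) and no overlap with a metal response element core. It was not found in the MT1X window, and 6.57% of all promoters held it. Among the 34 members 26 had a promoter in the table. Of these, 22 lay outside the metallothioneins, some with several promoters, and 11 of their 31 promoters held a metal response element core, that of SLC30A1 among them with 1 match. An AP-1 site was found in at least 1 promoter of 3 member genes, which were MT2A, MT1B and SLC30A10. A match describes these letters only.

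Total counts ranged from 31104964 to 40526912 per library. Reads counted to FOS went from 1.36 and 1.52 CPM in minus Dox to 48.6 and 51.0 CPM in plus Dox, and the counts do not separate A-FOS from the cell's own FOS. In the quasi-likelihood test of edgeR (Benjamini-Hochberg adjusted over 18046 tested genes) 28.4% of genes passed as higher and 28.4% as lower with doxycycline, with a median log2 fold change of 0.00. Scaling by library size only, without TMM, moves that median to 0.22, and 43.6% were then higher and 16.2% lower. The 6 epithelial markers together held 12625 to 12966 CPM in minus Dox and 6293 to 6489 CPM in plus Dox, and 5 of the 6 were lower, the keratins KRT7, KRT19, KRT8 and KRT18 among them. KRT8 (0.33) and KRT18 (0.41) passed as higher on the log2 scale with the trend on GC, length and abundance removed. The 9 alveolar type II markers held 120 to 128 CPM in minus Dox and 91.5 to 92.8 CPM in plus Dox. ABCA3 made up most of this sum, falling from a mean of 120 to 87.3 CPM (log2 fold change −0.46). LAMP3 rose from 0.552 to 2.18 CPM (1.96), and the other 2 of the 4 tested markers did not pass. The surfactant gene SFTPA1 was at 0 in every library. Markers of leukocytes held 3.79 to 5.31 CPM and of endothelium 0.805 to 1.63 CPM over all libraries, with the T cell gene CD3E at 0, and the collagen COL1A1 gave means of 40.02 and 35.1 CPM in the fibroblast list. The part of this marker shift in the results on zinc genes was not tested.

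Of the 34 members 24 passed the filter on low counts. In plus Dox 11 of these were higher, 6 were lower and 7 did not pass the test at an adjusted p of 0.05, beside 28.4% of all tested genes called in each direction. The other 10 had between 0 and 8 counts per library. MT1B, MT1E, MT1G, MT1H and MT1M were listed at 0 in all 4 libraries, as were SLC30A8, the transporter of insulin granules, and SLC39A12. A count of 0 allows up to 3 counts, or 0.0800 to 0.0895 CPM, for counting error only. Of the 50-base windows of their GENCODE 29 transcripts 19.0% (MT1B), 7.10% (MT1E), 16.5% (MT1G), 15.8% (MT1H) and 9.87% (MT1M) also occur in another gene. All 72 shared windows of MT1B occur in AC026461.2, and 31.6% of its exon bases overlap another gene on the same strand. Whether the counting dropped reads from shared windows was not tested. SLC30A2, SLC30A10 and SLC39A2 had scattered counts, the highest 8 in SLC30A10.

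**Figure D1:**
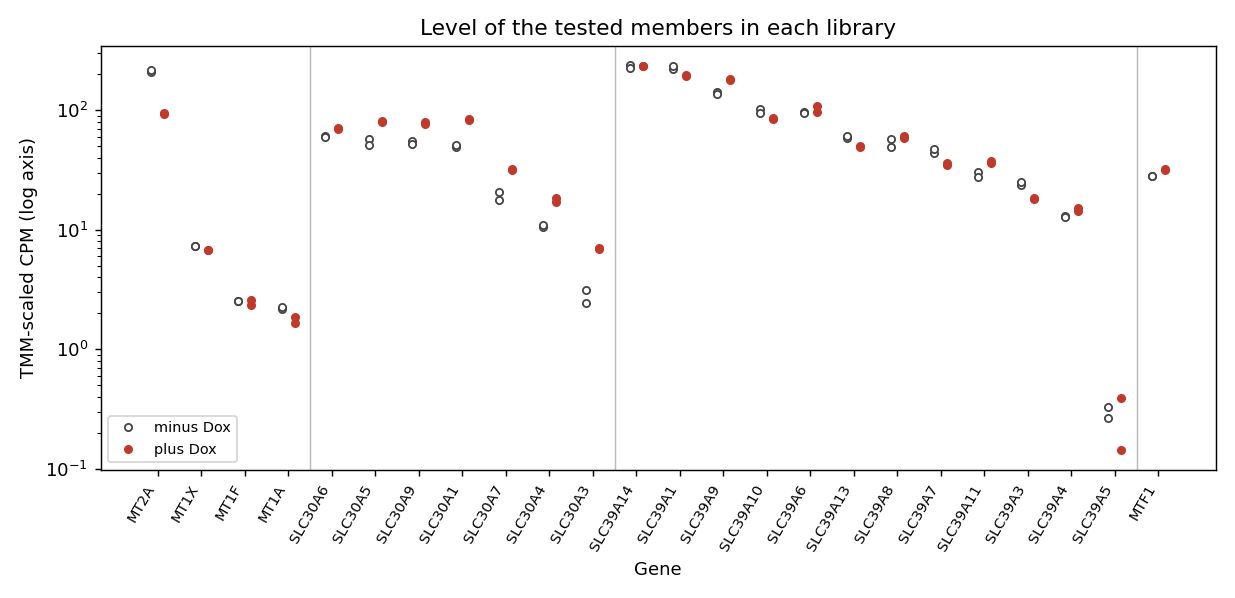
TMM-scaled CPM (log axis) of the 24 tested members, with 1 point per library, open for minus Dox and filled for plus Dox, ordered by minus Dox level within each family. MT2A is at 210 and 219 CPM without and 94.4 and 93.4 CPM with doxycycline, and in all 7 SLC30A genes both plus Dox points lie above both minus Dox points.

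Among the metallothioneins the large change was in MT2A, the most abundant isoform here. MT2A (ENSG00000125148, hg38 chromosome 16, 56608199 to 56609497) had 7106 and 8202 counts without doxycycline and 3322 and 3131 counts with it. On the TMM scale this was 210 and 219 CPM against 94.4 and 93.4 CPM, so that both induced libraries lay far below both uninduced ones. The fall was 2.28-fold, or −1.19 on the log2 scale (SE 0.04, edgeR adjusted p = 6.50e-23). MT2A passed as lower under all 9 alternative settings, between −1.22 and −0.67 on the log2 scale. The smallest value came with the trend on GC content, length and abundance removed.

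The 3 other metallothioneins with counts did not pass. MT1X (chromosome 16, 56682424 to 56684196) was at 7.34 and 7.28 CPM in minus Dox and 6.70 and 6.77 CPM in plus Dox, groups that do not overlap but differ by only −0.12 on the log2 scale (SE 0.13, edgeR adjusted p = 0.457). MT1A was at 2.19 and 2.27 CPM against 1.87 and 1.67 CPM, with a log2 fold change of −0.33 (SE 0.24). MT1F was at 2.54 and 2.51 CPM against 2.56 and 2.33 CPM, with overlapping groups. The sign of these 3 values depends on the scaling: MT1X and MT1F turned positive with library size only, and all 3 with the trend removed. Over the 4 tested genes 1 was lower and none higher, with a median of −0.22 against 0.00 over all tested genes. DESeq2, which called 24.2% of genes lower, also gave 1 lower and none higher. Groups with both plus Dox libraries below both minus Dox libraries, as in MT2A, MT1X and MT1A, made up 38.3% of all tested genes. Their genes lie side by side on chromosome 16 and resemble each other. In GENCODE 29 transcripts 18.3% of the 50-base windows of MT1X also occur in another gene. The share was 3.02% for MT2A, 5.76% for MT1A and 1.22% for MT1F. For MT1X 273 of the 341 shared windows occur in AC026461.1, and 18.1% of its exon bases overlap another gene on the same strand. The authors' counting could have split or dropped reads from shared windows.

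Per length of exon, MT2A stood at 165 RPKM (TMM-scaled CPM per kilobase of exon) in minus Dox, MT1A at 5.63, MT1X at 4.12 and MT1F at 1.34 RPKM. This order was the same in plus Dox, and in minus Dox no neighbours in it overlapped. Below MT2A it rests on exon lengths of 396 bases for MT1A, 1773 for MT1X and 1889 for MT1F. In mean CPM of minus Dox MT1X (7.31) was the highest of these 3, followed by MT1F (2.53) and MT1A (2.23). MT2A made up 94.6% (95% exact binomial interval 94.0 to 95.1) and 94.8% (94.3 to 95.2) of all metallothionein counts in the minus Dox libraries. In plus Dox its share was 89.4% (88.4 to 90.4) and 89.7% (88.6 to 90.7). These intervals cover counting error only, since amplified reads are not independent molecules. The share does not depend on library scaling, and it was lower in both induced libraries. The counts of all other metallothioneins together came to 12.1 and 12.1 CPM in minus Dox and 11.1 and 10.8 CPM in plus Dox.

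All 7 tested SLC30A exporters rose, against 28.4% of all tested genes called higher. Their median log2 fold change was 0.71, beside 0.00 over all tested genes. In each of the 7 genes both plus Dox libraries lay above both minus Dox libraries, which held for 38.7% of all tested genes. The count of 7 was also found with DESeq2 (23.6% of all genes higher), library size only (43.6%), no filter (15.4%) and a replicate block (28.9%). It was 7 as well without minus Dox replicate 1 (28.1%) or 2 (26.5%) and without plus Dox replicate 1 (23.9%) or 2 (24.2%). It did not hold with the trend on GC, length and abundance removed, where 5 passed as higher and 1 as lower (28.3% and 23.9% of all genes). GC content goes with the fold change in these libraries: among tested protein-coding genes below 40% GC the median log2 fold change was 0.43 and 68.9% were higher, and between 50 and 60% GC the median was −0.12 and 20.7% were higher. Of the 7 exporters 5 lie below 40% GC.

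SLC30A1 (ZnT1), the plasma membrane exporter and a known MTF1 target, rose from 49.0 and 51.2 CPM to 82.6 and 84.3 CPM. That is 1.67-fold, or 0.74 on the log2 scale (SE 0.05, edgeR adjusted p = 3.33e-14), and 0.39 with the trend removed (edgeR adjusted p = 1.53e-07). It moved opposite to MT2A, another well-known target of MTF1, in both induced libraries. The metallothionein genes MT1X, MT1A and MT1F did not pass. SLC30A1 went from the third to the first place among the exporters in RPKM, from 9.15 to 15.2 RPKM.

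SLC30A3 (ZnT3), which fills synaptic vesicles with zinc in neurons, had the largest fold rise of the tested members, at a low level. It had 82 and 118 counts without doxycycline and 245 and 236 counts with it, or 2.43 and 3.15 against 6.96 and 7.04 CPM. The log2 fold change was 1.32 (SE 0.16), a 2.50-fold rise with an edgeR adjusted p of 1.02e-08. It has a GC content of 56.4%, above the other 6 tested exporters, and stood at 1.30 with the trend removed.

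The exporters of the secretory pathway were higher as well. SLC30A5 (ZnT5) and SLC30A6 (ZnT6), which work as a pair, and SLC30A7 (ZnT7) load zinc into enzymes of the Golgi. SLC30A5 went from 57.9 and 51.2 CPM to 80.7 and 80.4 CPM (log2 fold change 0.56) and SLC30A7 from 20.8 and 17.6 CPM to 31.4 and 32.4 CPM (0.74). SLC30A6 rose least, from 60.8 and 59.4 CPM to 71.0 and 69.7 CPM, with a log2 fold change of 0.23 (edgeR adjusted p = 4.53e-04). It passed as lower with the trend removed (−0.15, edgeR adjusted p = 0.0192), where SLC30A7 did not pass (0.18, 0.0602). The partners ZnT5 and ZnT6 thus differed in size of change, and that difference was not tested.

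SLC30A4 (ZnT4), a transporter of endosomes and lysosomes, went from 10.6 and 11.0 CPM to 18.4 and 16.9 CPM, a log2 fold change of 0.71 (SE 0.10). SLC30A9, assigned to mitochondria, went from 55.3 and 52.3 CPM to 79.9 and 77.5 CPM, with a log2 fold change of 0.55 (SE 0.05). Both stayed higher with the trend removed, at 0.43 and 0.29 with edgeR adjusted p-values of 3.26e-04 and 2.92e-05.

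**Figure D2:**
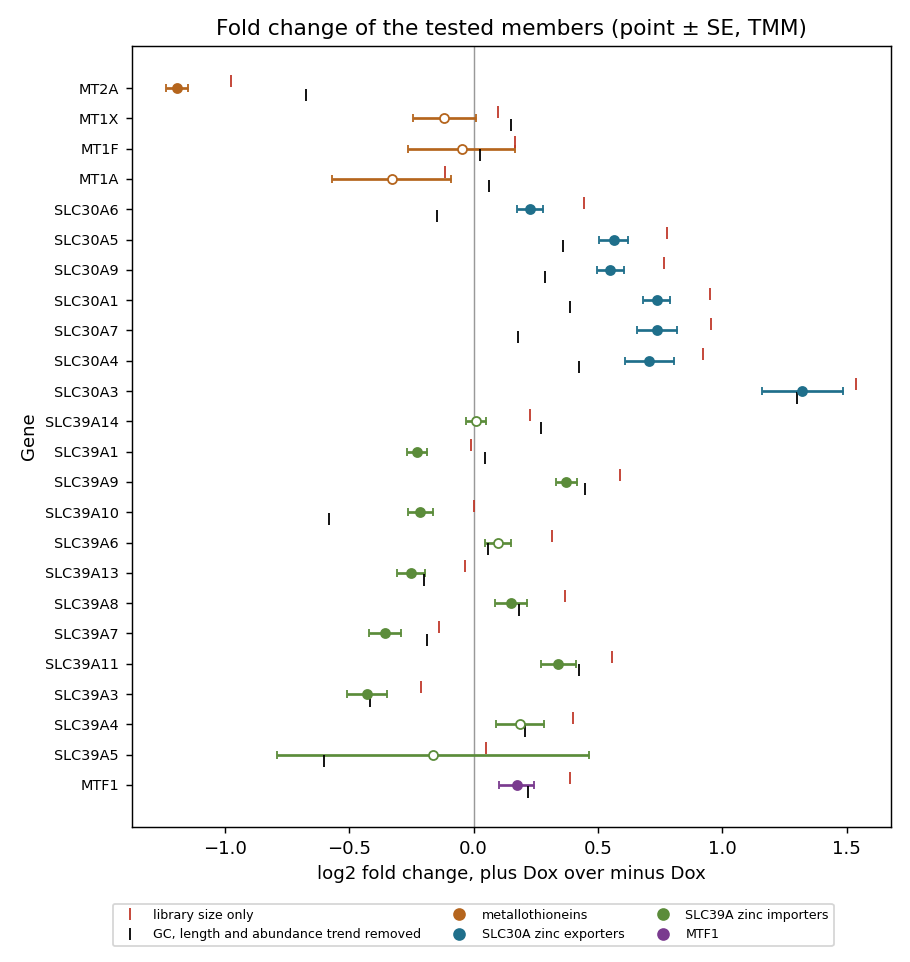
Log2 fold change of plus Dox over minus Dox for the 24 tested members (point ± SE, TMM scaling), filled where the gene passed at an adjusted p of 0.05 and open where it did not. Red ticks give the value with library size only and black ticks the value with the trend on GC, length and abundance removed; MT2A stays below 0 in all 3, while SLC30A6 changes sign with the trend removed.

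The SLC39A importers moved both ways and by less. Of 12 tested genes 3 were higher, 5 lower and 4 did not pass, with a median of −0.08 on the log2 scale, beside 28.4% of all tested genes called in each direction. The split depends on the scaling, with 6 higher and 1 lower with library size only (backgrounds 43.6% and 16.2%) and 4 and 4 with the trend removed. Fold changes of those that passed lay between −0.43 and 0.37.

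The lower importers include those that carry zinc in from outside and those that release it from stores. SLC39A3 (ZIP3), a plasma membrane importer, fell from 23.6 and 25.3 CPM to 18.4 and 18.0 CPM, a log2 fold change of −0.43 (SE 0.08, edgeR adjusted p = 2.58e-05), and was the 1 gene lower with library size only (−0.21). SLC39A7 (ZIP7), which releases zinc from the endoplasmic reticulum, fell from 43.8 and 47.2 CPM to 36.1 and 35.0 CPM (−0.36). SLC39A13 (ZIP13), known from connective tissue, fell from 58.2 and 60.9 CPM to 50.3 and 49.7 CPM (−0.25). With library size only SLC39A7 and SLC39A13 did not pass (−0.14 and −0.04).

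SLC39A1 (ZIP1), the importer with the highest level per length at 67.6 RPKM in minus Dox, went from 222 and 236 CPM to 194 and 198 CPM (−0.23). With library size only it was at −0.01 and with the trend removed at 0.04, passing in neither. Its count is uncertain, since 60.8% of its exon bases overlap exons of other genes on the same strand. Of its 2198 shared 50-base windows 2014 occur in AL358472.7. SLC39A10 (ZIP10) went from 103 and 94.7 CPM to 83.8 and 86.9 CPM, a log2 fold change of −0.21. It did not pass with library size only (0.0011) and was at −0.58 with the trend removed. Its transcript has a GC content of 37.6%. SLC39A6 (ZIP6), the close relative with which ZIP10 pairs, had 96.8 and 95.4 CPM against 108 and 97.3 CPM and did not pass (0.10). It passed as higher without minus Dox replicate 1 (0.11, edgeR adjusted p = 0.0429), without plus Dox replicate 2 (0.17, 0.0381) and with library size only (0.31).

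Among the higher importers SLC39A9 (ZIP9), found in the Golgi and at the cell surface, went from 142 and 136 CPM to 178 and 181 CPM. Its log2 fold change was 0.37 (SE 0.04, edgeR adjusted p = 1.66e-09), and it was higher under all 9 alternatives. SLC39A11 (ZIP11) went from 30.3 and 27.8 CPM to 36.3 and 37.3 CPM (0.34) and was also higher under all 9. SLC39A8 (ZIP8), which carries manganese and cadmium as well as zinc, was at 58.0 and 49.3 CPM against 58.6 and 60.4 CPM. Its call (0.15, edgeR adjusted p = 0.0399) was lost with DESeq2 (adjusted p = 0.131), with no filter (0.0629), and on leaving out minus Dox replicate 2 (0.650), or replicate 1 (0.0836) or 2 (0.211) of plus Dox.

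SLC39A14 (ZIP14), its close relative and also a carrier of manganese and iron, was among the most abundant importers. It was at 239 and 228 CPM in minus Dox and 235 and 235 CPM in plus Dox, with overlapping groups and a log2 fold change of 0.01 (SE 0.04). It passed as higher with library size only (0.23) and with the trend removed (0.27). SLC39A4 (ZIP4), the importer needed for zinc uptake in the gut, was at 13.1 and 12.9 CPM against 14.3 and 15.2 CPM and did not pass (0.19, edgeR adjusted p = 0.0987), but passed with library size only (0.40). SLC39A5 had 5 to 13 counts per library.

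**Figure D3:**
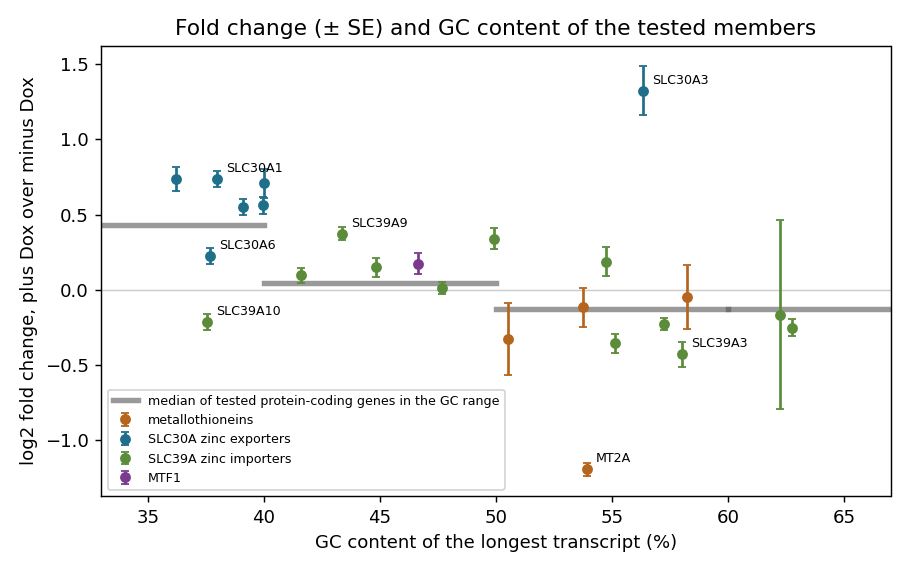
Log2 fold change (± SE) of the 24 tested members against the GC content of the longest GENCODE 29 transcript, in percent. Grey lines give the median over tested protein-coding genes in 4 GC ranges, which is 0.43 below 40% and −0.13 above 60%; MT2A at 53.9% and SLC30A3 at 56.4% lie far from the line of their range.

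Summed per length over each family, the metallothioneins stood at 173 and 180 RPKM in minus Dox and 82.5 and 81.2 RPKM in plus Dox, a ratio of 0.464. The SLC30A exporters together went from 42.1 and 40.5 RPKM to 60.5 and 60.05 RPKM, a ratio of 1.46. The SLC39A importers were at 211 and 212 RPKM and then at 204 and 203 RPKM, a ratio of 0.960. In RPKM the importers stood above the exporters in every library. In minus Dox the leading importers were SLC39A1, SLC39A14 at 33.6 and SLC39A6 at 26.1 RPKM, and the leading exporters SLC30A6 at 11.1, SLC30A5 at 9.44 and SLC30A1 at 9.15 RPKM, of which the ranges of SLC30A5 and SLC30A1 overlap. In a bulk sample a change in the RNA of each cell and in the share of cells that express a gene cannot be told apart.

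**Figure D4:**
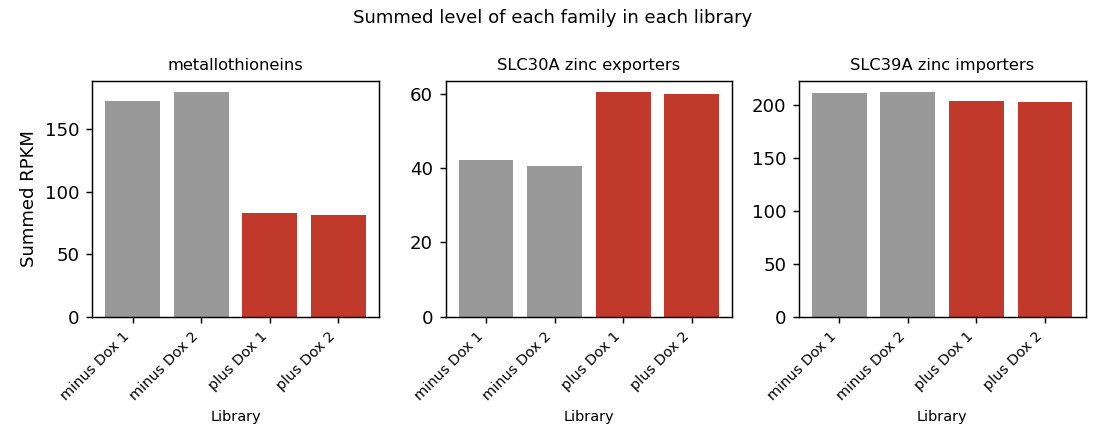
Summed RPKM of all members of each family in each library, with bars from 0, grey for minus Dox and red for plus Dox; the vertical scales differ between panels. The metallothionein sum is 173 and 180 without doxycycline and 82.5 and 81.2 with it, the exporter sum is higher in plus Dox, and the importer sum is 211 and 212 against 204 and 203.

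MTF1 (ENSG00000188786, chromosome 1, 37809567 to 37859620) was at 28.4 and 28.1 CPM in minus Dox and 31.4 and 32.3 CPM in plus Dox. The groups do not overlap, and the log2 fold change of 0.17 (SE 0.07) passed narrowly (edgeR adjusted p = 0.0350). It did not pass with DESeq2 (adjusted p = 0.117), with no filter (0.0955), or on leaving out minus Dox replicate 2 (0.0780), or replicate 1 (0.112) or 2 (0.215) of plus Dox.

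The genes flanking the metallothionein cluster on chromosome 16 changed by little where they were well expressed. Of 7 tested neighbours 2 were higher, 2 lower and 3 did not pass, beside 28.4% of all tested genes in each direction, the share against which the counts of the lists that follow also stand. The nuclear pore gene NUP93 went from 136 to 108 CPM (log2 fold change −0.33) and the hydroxylase gene OGFOD1 from 91.2 to 76.5 CPM (−0.25). Scaled by library size only, OGFOD1 was at −0.04 and missed the threshold. NUDT21, a factor of RNA 3′ end processing, had a log2 fold change of 0.11, was lower with the trend removed (−0.24), and lost its call with DESeq2 (adjusted p = 0.0928), with no filter (0.0769), and on leaving out minus Dox replicate 2 (0.278), or replicate 1 (0.0601) or 2 (0.391) of plus Dox. The salt transporter SLC12A3 was higher at a very low level, 0.0296 against 0.570 CPM. BBS2, HERPUD1 and GNAO1 did not pass, at 0.12, 0.02 and 0.17. MT2A, at −1.19, had a lower log2 fold change than each of these neighbours. Among 12 metallothionein relatives outside the set, MT3 and MT4 and pseudogenes among them, 1 was tested (MT1DP, with 7 to 19 counts) and it did not pass.

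Outside the transporter families, 6 zinc channels, chaperones and sensors were tested, of which 1 was higher, 1 lower and 4 did not pass. The zinc-sensing receptor gene GPR39 went from 9.66 to 4.10 CPM (log2 fold change −1.23, edgeR adjusted p = 2.43e-09), though 34.8% of its exonic sequence is opposite a gene on the other strand. The zinc chaperone gene CBWD1 was higher at 0.47, which was lost without plus Dox replicate 1 (0.31, edgeR adjusted p = 0.106) and with the trend removed (−0.09). It has close paralogs. Of 8 tested zinc ectoenzymes, which carry zinc in their active site, 3 rose, 3 fell and 2 did not pass. The carbonic anhydrase CA12 fell from 252 to 57.9 CPM (−2.12) and the nucleotidase NT5E from 65.7 to 40.1 CPM (−0.71). The phosphodiesterase ENPP1 rose from 5.93 to 10.9 CPM (0.88), and the intestinal alkaline phosphatase ALPI from 0.102 to 1.06 CPM.

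Other signals known to act on metallothionein genes were read from lists of genes linked to them. Of 10 tested metal and oxidant stress genes 5 were higher and 4 lower, with heme oxygenase HMOX1 at −2.04, the chaperone DNAJB1 at −0.74, the quinone reductase NQO1 at −0.47 and the glutathione synthesis gene GCLM at 0.45 on the log2 scale. NQO1 passed as higher with the trend removed (0.12). Of 10 tested genes of the glucocorticoid list 5 were higher and 4 lower, and its members moved apart. The kinase SGK1 fell by 2.59 on the log2 scale, the phosphatase DUSP1 by 0.87 and the NF-kB inhibitor NFKBIA by 0.70. The 5 that rose were the transcription factor gene KLF9 (1.13), the chaperone gene FKBP5 (0.79), the clock gene PER1 (0.58), the glutamine synthetase gene GLUL (0.50) and ERRFI1 (0.28), named after their values were seen. The glucocorticoid receptor gene NR3C1, which is not a target but is counted among the 4 lower genes, fell from 192 to 136 CPM (−0.51). The part of these signals in the fall of MT2A was not tested.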

How the data were processed

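Per the labels, polyA RNA was sequenced in 2 minus Dox and 2 plus Dox libraries. Each deposited file gives 1 library's raw counts by Ensembl gene, with no normalization. The submitters' processing notes name DRAGEN, cutadapt 4.0, STAR 2.7.10b, featureCounts 2.0.3, DESeq2 2.11.40.7 and hg38, with no roles; neither the annotation nor the strand setting is given in the sources used here, so reads of overlapping or antisense genes cannot be told apart. Symbols, positions and exon lengths came from GENCODE 29, promoters from RefSeq. In R 4.3.3, genes were kept with filterByExpr (edgeR 4.0.16, defaults), scaled by TMM and tested with the quasi-likelihood test, with p-values adjusted by Benjamini-Hochberg over all genes in the fit (threshold 0.05). SE is the log2 fold change divided by the root of F. RPKM is TMM-scaled CPM per kilobase of exon. The trend on GC, length and abundance was a smooth fit (mgcv 1.9.3) to the log2 fold changes of this comparison, entered as an offset. It explained 9.75% of their deviance. Removing it can take out biological change as well as technical bias, and which of them it holds was not tested. DESeq2 1.42.0, library size only, no filter, a replicate block and each library left out were also run. Simulated data tested the pipeline over 18046 genes, with the changed genes drawn only from those above a minimum expected count. Of 50 genes for each size of change, it recovered 48% changed 1.2-fold, 74% changed 1.5-fold and 92% changed 2-fold. Members, lists and rules were chosen with earlier results of these data known. Every tested member was named, all 7 tested cluster neighbours (1 further gene there is not reported here), and from other lists at most 4 called genes of lowest adjusted p, plus those said to be named after their values were seen. Of the listed names 1, ALPPL2, was not matched.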

Additional observations from a re-analysis of the deposited data

How the results depend on the processing

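For tested members, 183 of 216 gene-by-alternative values kept their direction and their side of the threshold, 14 lost the call, 6 gained one and 13 changed sign. With library size only 7862 genes were higher and 2927 lower, and 6 importers were higher and 1 lower. MT1F (0.17), MT1X (0.098), SLC39A5 (0.049), SLC39A10 (0.0011) and COL1A1 (0.022) then changed sign. With the trend on GC, length and abundance removed 1 exporter, SLC30A6 (−0.15), was lower, and SLC39A1 (0.045), MT1A (0.063), MT1F (0.026), MT1X (0.15), NUDT21 (−0.24), CBWD1 (−0.090), NQO1 (0.12), KRT8 (0.33) and KRT18 (0.41) changed sign. MTF1 did not pass with DESeq2 (0.17) or no filter (0.16), where SLC39A14 was at −0.00069. Leaving out 1 library gave MTF1 0.15 to 0.19, SLC39A14 −0.023 to 0.042, SLC39A5 −1.04 to 0.39, MT1F −0.12 to 0.018 and GNAO1 −0.67 to 0.69. The cause of these shifts was not tested. The replicate block gave 5219 higher and 5195 lower genes and changed no member's call. The labels do not say whether replicate numbers pair the libraries. Deviations of same-numbered libraries correlated at 0.0023 across genes, which cannot show whether the libraries were handled as pairs. Depth limits SLC39A5, at 5 to 13 counts per library.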

Other observations

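Genes that handle other metals also moved both ways. Of 16 tested copper genes 6 were higher, 5 lower and 5 did not pass, beside 28.4% of all tested genes in each direction. The copper-exporting ATPase genes ATP7A and ATP7B went from 28.96 to 48.1 CPM and from 16.2 to 23.2 CPM, with log2 fold changes of 0.73 and 0.51 (edgeR adjusted p = 1.21e-11 and 4.13e-06). The chaperone ATOX1, which hands copper to these ATPases, fell from 62.7 to 44.9 CPM (−0.48), and the metalloreductase STEAP3 from 75.9 to 44.6 CPM (−0.77). The mitochondrial copper gene COX11 rose from 61.8 to 87.9 CPM (0.51). STEAP2 was at 0.68. ATP7B and ATOX1 were named after their values were seen. These directions were the same under both other scalings (library size only, trend on GC, length and abundance removed).

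Of 17 tested genes of iron, manganese and magnesium transport 9 were higher, 3 lower and 5 did not pass, beside the same 28.4%. CNNM1 fell from 168 to 65.7 CPM (−1.36), while its relative CNNM4 went from 25.3 to 41.8 CPM (0.72). The magnesium transporters MAGT1 and SLC41A1 rose from 89.4 to 145 CPM and from 77.3 to 120 CPM.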
